A study of Mus musculus with 18 samples.

Results

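The zinc finger genes with symbols from Zfp900 to Zfp999 were described in mouse embryonic stem (ES) cells that lacked, kept or regained the chromatin remodeller Snf2h. Members were every gene of the count table whose symbol was Zfp9 followed by another 2 digits, which gave 52 of 24116 genes. All 52 passed the filter on low counts that left 14901 genes to be tested. RNA was sequenced from 18 libraries in 4 groups: Snf2h ko cells with wild-type Snf2h added back (wild-type add-back, n = 3), Snf2h ko cells with a mutant Snf2h added back that the growth protocol describes as an ATPase mutant (mutant add-back, n = 2), Snf2h ko cells (ko, n = 5) and wild-type cells (wild type, n = 8). All cells were labelled as ES cells of strain 129S6/SvEvTac and grown in serum with leukemia inhibitory factor. Wild-type and wild-type add-back cells grew on gelatin, whereas ko and mutant add-back cells spent at least their first passages after thawing on feeder layers of mouse embryonic fibroblasts. The libraries are labelled as biological replicates, but not as separate clones or cultures, so p-values measure only the spread between these samples. In bulk RNA, fewer cells of a type and less RNA per cell cannot be told apart.

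The gene Smarca5 encodes Snf2h, the motor subunit of ISWI remodellers, which slide and space nucleosomes and are known in ES cells for their role in binding of the insulator protein CTCF. Most genes named Zfp encode proteins with arrays of C2H2 zinc fingers that read DNA sequence, and most of the members studied here belong to the KRAB type. The KRAB domain recruits the corepressor Trim28 (KAP1), which brings in the histone H3K9 methyltransferase Setdb1, HP1 proteins and the NuRD complex to silence the bound site. Many KRAB zinc finger genes arose by tandem duplication and lie in clusters, in which some copies are near-identical. In ES cells they are known mainly for silencing endogenous retroviruses. Among the members, Zfp932 is known to bind endogenous retroviruses of the ERVK class and Zfp982 has been described as a regulator of stem cell characteristics in mouse ES cells.

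The members lay on 12 chromosomes, and 33 of them sat in 6 runs, in which neighbouring members were at most 1 Mb apart. The start regions below are the RefSeq sequences (GRCm38.p6, 5′ to 3′ on the strand of the gene, 250 bases before to 50 bases after the start). They are shown because these genes carry the results: 3 members of the run on chromosome 4 that fell in ko cells (Zfp980, Zfp981 and Zfp985), the member of that run with the smallest change (Zfp933), 3 of the 4 members with the largest decreases (Zfp941, Zfp951 and Zfp936) and the member that rose (Zfp961). Where a gene has several entries, the one with the lowest coordinate is shown, which on the minus strand is the most downstream. The regions shown for Zfp936 and Zfp981 on the + strand and for Zfp933 on the minus strand lie inside the span of the gene. Capitals mark CCAAT or, on the opposite strand, ATTGG.
Zfp980, chr4:145670447-145670746, + strand: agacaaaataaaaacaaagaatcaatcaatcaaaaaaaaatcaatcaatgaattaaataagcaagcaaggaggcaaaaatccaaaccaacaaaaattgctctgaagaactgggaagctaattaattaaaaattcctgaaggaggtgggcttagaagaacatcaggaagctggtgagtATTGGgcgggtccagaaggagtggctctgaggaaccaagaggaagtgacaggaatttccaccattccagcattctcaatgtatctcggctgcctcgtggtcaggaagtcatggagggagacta
Zfp981, chr4:146514670-146514969, + strand: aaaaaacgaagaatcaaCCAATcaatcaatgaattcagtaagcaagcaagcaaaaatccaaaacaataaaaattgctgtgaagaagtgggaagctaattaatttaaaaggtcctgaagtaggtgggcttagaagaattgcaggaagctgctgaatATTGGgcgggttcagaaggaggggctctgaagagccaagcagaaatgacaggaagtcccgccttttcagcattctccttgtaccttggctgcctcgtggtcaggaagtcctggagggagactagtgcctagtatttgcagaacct
Zfp985, chr4:147553027-147553326, + strand: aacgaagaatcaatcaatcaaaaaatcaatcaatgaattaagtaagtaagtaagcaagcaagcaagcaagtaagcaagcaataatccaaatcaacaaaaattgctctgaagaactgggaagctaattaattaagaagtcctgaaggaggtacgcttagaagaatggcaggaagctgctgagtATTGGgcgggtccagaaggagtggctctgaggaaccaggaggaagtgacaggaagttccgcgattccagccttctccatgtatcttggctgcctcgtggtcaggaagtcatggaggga
Zfp933, chr4:147848369-147848668, - strand: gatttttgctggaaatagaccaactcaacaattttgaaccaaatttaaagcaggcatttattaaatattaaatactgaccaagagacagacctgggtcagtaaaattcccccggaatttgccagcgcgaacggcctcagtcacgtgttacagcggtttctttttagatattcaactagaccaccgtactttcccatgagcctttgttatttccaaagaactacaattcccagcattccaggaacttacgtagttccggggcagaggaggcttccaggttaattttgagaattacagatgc
Zfp941, chr7:140822129-140822428, - strand: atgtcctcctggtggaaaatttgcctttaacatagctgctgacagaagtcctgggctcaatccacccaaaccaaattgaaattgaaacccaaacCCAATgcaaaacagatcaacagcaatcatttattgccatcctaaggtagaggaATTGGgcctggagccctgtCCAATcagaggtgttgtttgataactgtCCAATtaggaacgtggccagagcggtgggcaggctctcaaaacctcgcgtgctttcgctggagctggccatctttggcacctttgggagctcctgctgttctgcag
Zfp951, chr5:104859978-104860277, - strand: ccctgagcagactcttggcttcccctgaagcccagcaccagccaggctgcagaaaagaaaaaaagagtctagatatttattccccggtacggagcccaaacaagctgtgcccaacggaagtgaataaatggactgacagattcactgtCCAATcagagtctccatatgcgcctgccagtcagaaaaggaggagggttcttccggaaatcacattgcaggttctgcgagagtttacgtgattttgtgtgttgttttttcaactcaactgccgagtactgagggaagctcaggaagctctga
Zfp936, chr7:43177340-43177639, + strand: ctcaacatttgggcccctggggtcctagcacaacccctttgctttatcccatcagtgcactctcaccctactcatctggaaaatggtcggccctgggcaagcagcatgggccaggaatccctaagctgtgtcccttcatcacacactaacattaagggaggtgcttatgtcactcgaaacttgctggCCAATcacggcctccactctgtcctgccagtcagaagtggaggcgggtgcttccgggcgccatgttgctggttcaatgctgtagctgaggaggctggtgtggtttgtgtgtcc
Zfp961, chr8:71950816-71951115, + strand: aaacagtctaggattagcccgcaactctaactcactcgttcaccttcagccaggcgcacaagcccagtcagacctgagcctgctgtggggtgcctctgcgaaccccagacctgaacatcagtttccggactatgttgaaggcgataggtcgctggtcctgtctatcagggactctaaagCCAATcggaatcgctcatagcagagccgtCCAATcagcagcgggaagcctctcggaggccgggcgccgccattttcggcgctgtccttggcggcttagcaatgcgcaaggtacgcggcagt

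Start regions of neighbours were close copies of each other on chromosomes 2, 4 (without Zfp933) and 7, and less alike on chromosome 17. Identities are given for pairs that aligned over at least 200 bases. Where a gene had several entries, the most alike combination was taken, so identities lean high and need not be those of the sequences above. On chromosome 4, the 21 pairs without Zfp933 were 81.1 to 95% identical over their aligned bases (median 89.2%), Zfp980 and Zfp985 at 93.6% and Zfp980 and Zfp981 at 87.7%. The 5 such pairs of Zfp933 reached 67.5 to 72.5%. The 15 pairs on chromosome 2 were 80.9 to 100% identical, and the 3 pairs on chromosome 7 were 88.4 to 90.8% identical. On chromosome 17 only 23 of 45 pairs aligned over that length, and these ranged from 71.2 to 99.6% with a median of 75.4%. Of the 52 members, 48 had a start region in the RefSeq promoter table (not Zfp930, Zfp934, Zfp960 and Zfp992). CCAAT was found on either strand in 36 of 48 members (75.0%), against 37.4% of all 32851 start regions of the table. GGGCGG, likewise on either strand, was found in 37.5% of the 48 members, against 35.7%. A member was counted if any of its entries matched, whereas the table was counted by entry. Members with several entries thus had more chances to match. In Zfp980, Zfp981 and Zfp985 the ATTGG runs into a GGGCGG, so those matches overlap. TATAAA, also searched on both strands, was found in 0 of 48, against 13.6%. These motifs were chosen with the values known, and copies of one promoter are not independent, so the shares are descriptions.

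Library totals were 15.3 to 37 M counts and fell into a low tier under 20 M (11 libraries, including all 5 add-back libraries), a middle tier of 20 to 30 M (ko replicates 1 and 2, wild type replicates 1 and 2) and a high tier over 30 M (wild type replicates 3 to 5). The tiers were drawn from the totals and are not groups of the study. Levels are given as CPM, which are counts per 1 M counts of a library, with library sizes scaled by edgeR's TMM method. Smarca5 averaged 86.0 ± 3.63 CPM in wild-type add-back (SD, n = 3), 58.5 ± 14.3 in mutant add-back (n = 2), 9.36 ± 0.59 in ko (n = 5) and 185 ± 29.1 in wild type (n = 8). Both add-backs therefore lay between ko and wild type. The 10 ES cell markers summed to 5763 to 6151 CPM in wild-type add-back, 6599.7 to 7071 in mutant add-back, 4971 to 6659 in ko and 5650.2 to 5896 in wild type. The 16 feeder fibroblast markers summed to 61.2 to 67.1 CPM in wild-type add-back, 191 to 245 in mutant add-back, 206 to 233 in ko and 57.7 to 92.6 in wild type. Of the 12 feeder markers tested, 10 rose and 1 fell in ko against wild type, while Lum was at 0 in ko, Fap and Lum were at 0 in mutant add-back, and Fap and Postn were at 0 in wild-type add-back. The 8 endoderm markers summed to 1888 to 2149.9 CPM in wild-type add-back, 2793 to 2989.8 in mutant add-back, 1656 to 6973 in ko and 989 to 2620.4 in wild type. The 8 markers of 2-cell-like cells summed to 4.0 to 4.15 CPM in wild-type add-back, 2.7 to 3.36 in mutant add-back, 1.02 to 7.23 in ko and 10.2 to 25.5 in wild type. The feeder markers were high in the same 2 groups in which many members were low, and their part in the results below was not tested. These 2 groups, ko and mutant add-back, are also those that spent passages on feeder layers. Where either is compared with wild type or wild-type add-back, growth on feeders and the state of Snf2h cannot be told apart.

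Nearly all members were expressed in every group. A mean of 1 CPM was reached by 50 of 52 members in wild-type add-back, 49 in mutant add-back, 48 in ko and 49 in wild type, and 48 members reached it in all 4 groups. Zfp957 averaged 0.732 CPM in wild-type add-back, 0.544 in mutant add-back, 0.542 in ko and 0.569 in wild type, and Zfp964 averaged 0.493 CPM in wild-type add-back, 0.428 in mutant add-back, 0.492 in ko and 0.559 in wild type, so both stayed below 1 CPM throughout. Zfp972 lay at the limit, with 1.04 ± 0.37 CPM in wild-type add-back, 1.40 ± 0.373 in mutant add-back, 0.969 ± 0.0522 in ko and 0.918 ± 0.299 in wild type, and no comparison of it passed the test. Zfp939 lay on both sides of the limit and averaged 2.14 CPM in wild-type add-back, 0.514 in mutant add-back, 0.406 in ko and 2.25 in wild type. The median member averaged 18.7 CPM in wild-type add-back, 11.5 in mutant add-back, 11.5 in ko and 16.4 in wild type.

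Per length of exon, the 6 members with the highest levels in wild type all lay in the run on chromosome 4. In wild type, Zfp979 reached 59.6 ± 12.2 CPM per kb (SD, n = 8), Zfp980 59.4 ± 9.01, Zfp985 51.5 ± 6.76, Zfp981 38.0 ± 4.5, Zfp982 36.7 ± 3.28 and Zfp987 31.2 ± 4.35 CPM per kb. Zfp979 and Zfp980 did not differ beyond their spread. Zfp961 on chromosome 8 followed with 29.7 ± 4.01 CPM per kb, and Zfp936 on chromosome 7 reached 23.0 ± 5.44. Zfp933 stood apart from the rest of the chromosome 4 run with 1.87 CPM per kb, below the median of 4.82 CPM per kb over the members. At the lower end stood Zfp950 with 0.683 ± 0.139, Zfp964 with 0.321 ± 0.07 and Zfp957 with 0.207 ± 0.0655 CPM per kb.

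**Figure D1:**
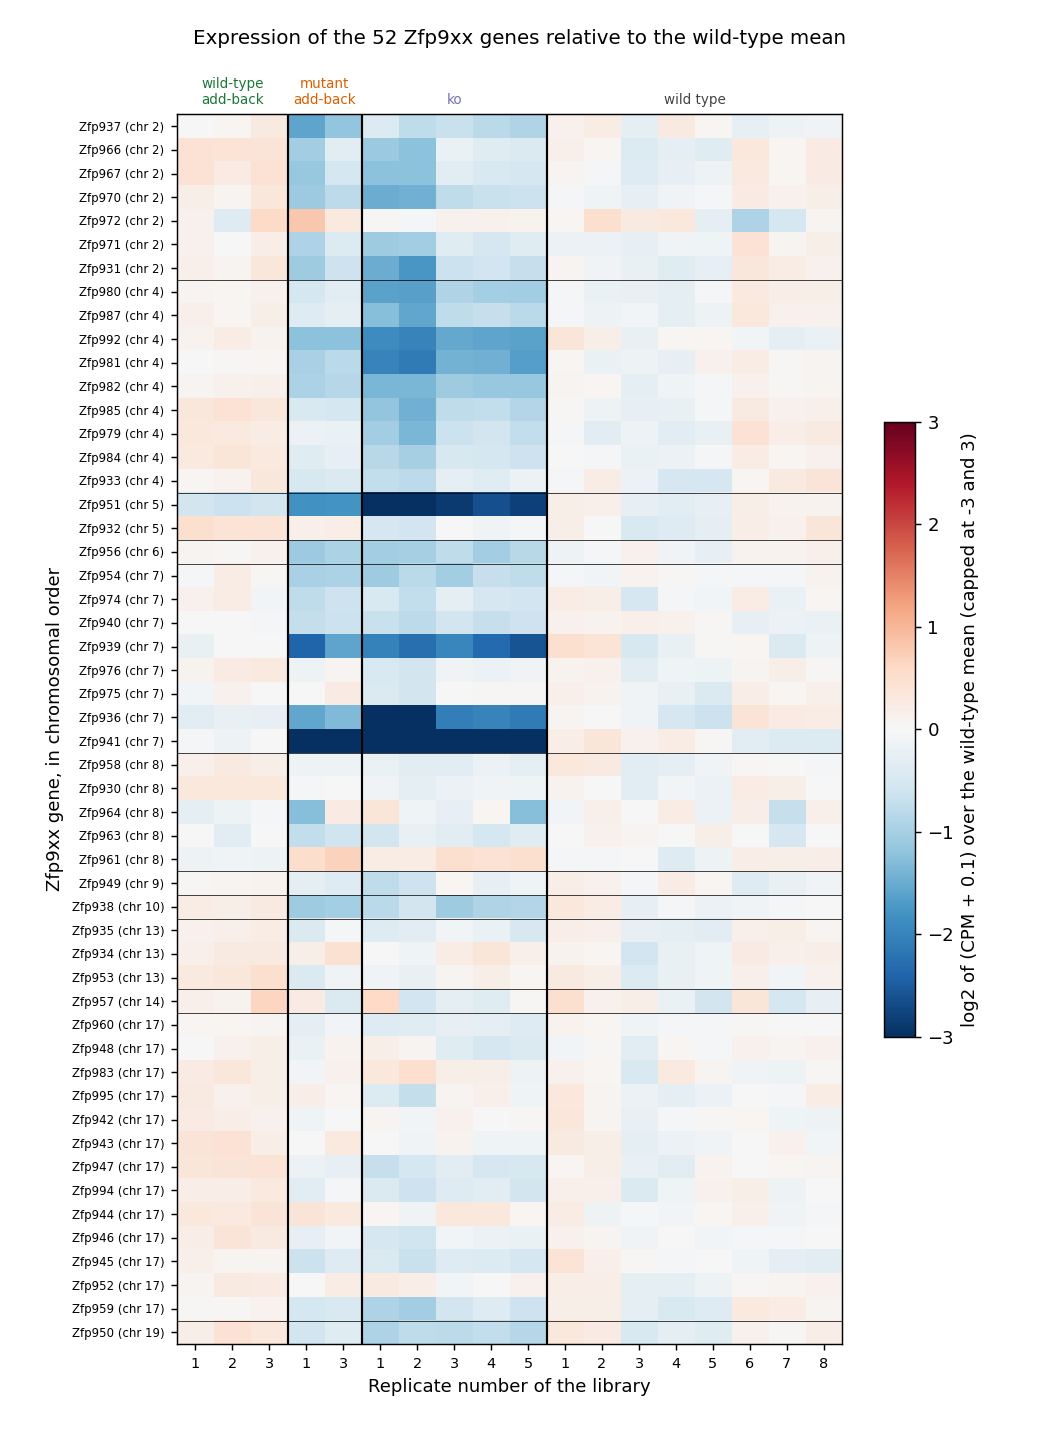
Level of each of the 52 members (vertical axis, in chromosomal order) in each of the 18 libraries (horizontal axis, by group and replicate number), as log2 of (CPM + 0.1) over the mean of the 8 wild-type libraries, with blue below and red above that mean. The darkest blue is seen for Zfp941 in mutant add-back and ko and for Zfp951 and Zfp936 in ko, and the 9 members of chromosome 4 from Zfp980 to Zfp933 form a blue block in ko.

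Loss of Snf2h was set against wild type first. In ko cells 36 members fell and 1 rose, and 15 did not pass the test (edgeR quasi-likelihood test, adjusted p under 0.05 over all 14901 genes). Over all genes tested, 55.0% passed, of which 28.2% of all genes fell and 26.8% rose. The median log2 fold change was -0.49 over the members, -0.22 over the other 289 tested genes named Zfp and a number (126 fell, 26 rose) and -0.01 over all genes. In 24 members every ko library lay below every wild-type library, which held for 15.4% of all genes, and in 1 member every ko library lay above (14.1% of all genes). Summed over the 52 members, RNA amounted to 913 to 1236 CPM in ko (median 1165), against 1666 to 2184 CPM in wild type (median 1927), and these ranges did not overlap.

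All 9 members on chromosome 4, between 145670697 and 147849126, fell in ko cells. Zfp981 had 30.3, 27.9, 45.1, 44.4 and 38.3 CPM in ko, against 102 to 142 CPM in wild type (median 124), a log2 fold change of -1.71 ± 0.12 (SE; adjusted p = 1.3e-09). Zfp992 had 29.4, 27.1, 37.1, 36.4 and 35.4 CPM in ko, against 89.7 to 139 CPM in wild type (median 107), also -1.71 ± 0.11 (adjusted p = 4.9e-10). For both genes the ko libraries lay far below the wild-type libraries, and ko replicates 1 and 2 were the lowest. Zfp982 had 45.0, 45.0, 55.2, 53.2 and 52.6 CPM in ko, against 96.8 to 127 CPM in wild type (median 120.2), a change of -1.21 ± 0.08 (adjusted p = 3.6e-10). Zfp980, the member with the highest count in wild type, had 78.3, 76.4, 126, 117 and 114 CPM in ko, against 197 to 292 CPM in wild type (median 228), a change of -1.21 ± 0.13 (adjusted p = 3.6e-07). Zfp987 had 36.2, 29.8, 52.2, 54.7 and 50.3 CPM in ko, against 73.9 to 111 CPM in wild type (median 84.8), a change of -0.99 ± 0.13 (adjusted p = 4.9e-06). None of these groups overlapped. Zfp985, Zfp979 and Zfp984 fell by 0.98, 0.84 and 0.67 on the log2 scale without overlap. Zfp933 fell by 0.45, and its ko libraries (4.6 to 7.03 CPM) overlapped those of wild type (5.64 to 10.5 CPM). Whether the likeness of start regions goes with the size of the change was not tested. The summed level of the run was 388 to 598 CPM in ko, against 959 to 1314 CPM in wild type. Of the 7 other genes tested within the run, 6 fell, with a median of -1.24.

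The largest decreases were found in members outside that run. Zfp941 (chr7:140807453-140822201) had 2.09, 2.05, 2.03, 2.17 and 2.27 CPM in ko, against 15.2 to 26.0 CPM in wild type (median 21.4), a log2 fold change of -3.26 ± 0.15 (SE; adjusted p = 8.5e-12). Zfp951 (chr5:104802246-104860157) had 1.81, 1.86, 3.56, 4.18 and 3.72 CPM in ko, against 20.8 to 30.2 CPM in wild type (median 28.6), a change of -3.16 ± 0.19 (adjusted p = 2.1e-10). The 5 ko libraries of Zfp941 were nearly equal, whereas for Zfp951 replicates 1 and 2 were lower than the other ko libraries. Zfp939 (chr7:39449479-39477429) had 0.472, 0.387, 0.508, 0.37 and 0.29 CPM in ko, against 1.57 to 3.16 CPM in wild type (median 2.16), a change of -2.45 ± 0.24 (adjusted p = 1.1e-07). Zfp936 (chr7:43114166-43192109) had 8.74, 7.54, 16.8, 17.7 and 16.4 CPM in ko, against 45.8 to 94.2 CPM in wild type (median 73.2), a change of -2.42 ± 0.22 (adjusted p = 4.6e-08). Neither gene overlapped between the groups. Zfp936 shares its run with Zfp976, which fell by 0.27, and with Zfp975, whose change of -0.16 did not pass the test.

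**Figure D2:**
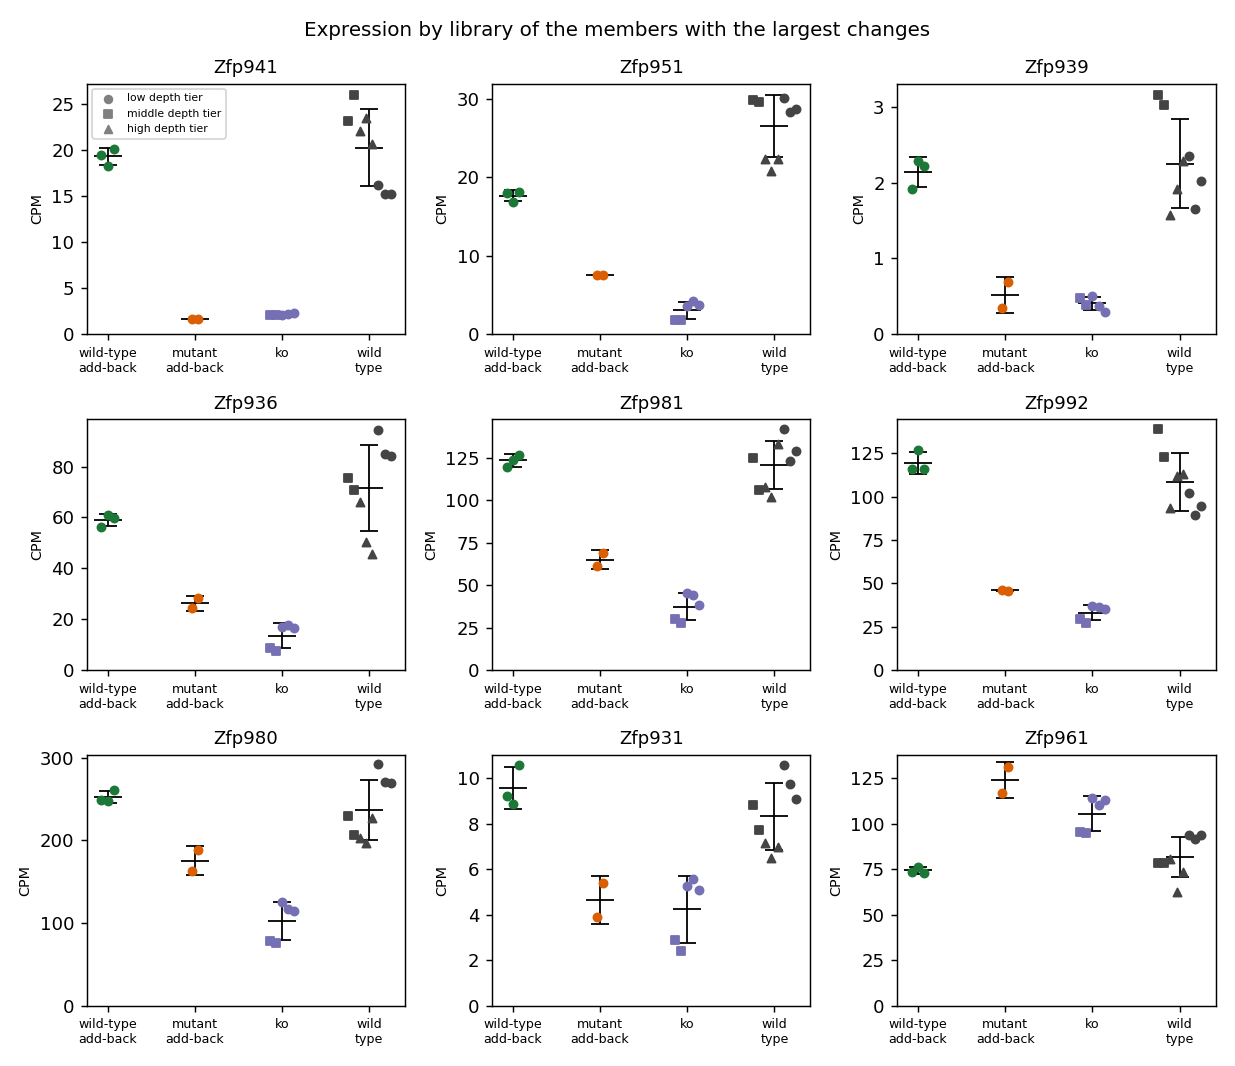
CPM (vertical axis, linear, from 0) of 9 members in each library of wild-type add-back, mutant add-back, ko and wild type (horizontal axis), with the marker shape giving the depth tier and the bars the mean and SD of each group. Zfp941 stood at 1.65 and 1.67 CPM in mutant add-back and at 18.3 to 20.1 CPM in wild-type add-back, Zfp951 stood at 7.52 and 7.57 CPM in mutant add-back, and Zfp961 ran the opposite way, with 117 and 131 CPM in mutant add-back.

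The run on chromosome 2, between 175918283 and 178078425, held 6 members, of which 5 fell in ko cells. Zfp931 had 2.91, 2.4, 5.25, 5.56 and 5.11 CPM in ko, against 6.5 to 10.6 CPM in wild type (median 8.28), a change of -0.98 ± 0.2 (SE; adjusted p = 0.00035) with no overlap. Zfp970 fell by 0.97, Zfp967 by 0.71, Zfp971 by 0.64 and Zfp966 by 0.62 on the log2 scale. Zfp972 had a change of 0.05 that did not pass the test. Of the 12 other genes tested in that span, 11 fell, with a median of -0.59. Zfp937, which lies apart on the same chromosome, fell by 0.71.

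The 10 members of the run on chromosome 17 moved less. Between 21565816 and 22867309, 4 of them fell (Zfp947 by 0.51, Zfp945 by 0.48, Zfp994 by 0.46 and Zfp946 by 0.30), and the median over the run was -0.18. Zfp948, Zfp983, Zfp995, Zfp942, Zfp943 and Zfp944 did not pass the test, with log2 fold changes between -0.18 and 0.23. The median was -0.99 on chromosome 4, -0.68 on chromosome 2 and -0.67 over the 19 members that lay in no run. In the 3-member run on chromosome 8, Zfp963 fell by 0.41, while Zfp930 (-0.15) and Zfp964 (-0.16) did not pass. On chromosome 13, Zfp935 fell by 0.29 and its neighbour Zfp934 had a change of 0.13 that did not pass.

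Of the 19 members in no run, 14 fell and 1 rose. Besides Zfp941, Zfp951, Zfp939 and Zfp937, these were Zfp956 (-0.95), Zfp954 (-0.88), Zfp938 (-0.84), Zfp950 (-0.82), Zfp959 (-0.70), Zfp940 (-0.67), Zfp974 (-0.52), Zfp949 (-0.33), Zfp960 (-0.33) and Zfp958 (-0.27). Zfp932 (-0.22), Zfp952 (0.11), Zfp953 (0.01) and Zfp957 (-0.05) did not pass. The member that rose, Zfp961, had 95.2, 94.8, 114, 110.4 and 113 CPM in ko, against 62.5 to 94.0 CPM in wild type (median 79.5), a change of 0.37 ± 0.09 (SE; adjusted p = 0.0017). Its groups were separate by a narrow margin, since the lowest ko library had 94.8 and the highest wild-type library 94.0 CPM. Exons of Zfp961 overlap exons of Cyp4f18 on the opposite strand in the GENCODE annotation, and the strand setting of the counts is not given in the sources used here.

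Adding wild-type Snf2h back was then set against ko. In wild-type add-back cells 38 members rose, 1 fell and 13 did not pass the test, where 22.5% of all genes rose and 22.4% fell (45.0% in either direction). The median log2 fold change was 0.66 over the members and 0.28 over the other Zfp genes (126 rose, 18 fell), and -0.01 over all genes. In 39 members every add-back library lay above every ko library (28.5% of all genes). Zfp941 had 19.5, 18.3 and 20.1 CPM in wild-type add-back, against 2.03 to 2.27 CPM in ko, a change of 3.18 ± 0.17 (SE; adjusted p = 1.1e-10). Zfp951 had 18.0, 16.9 and 18.2 CPM in wild-type add-back, against 1.81 to 4.18 CPM in ko (2.57 ± 0.22, adjusted p = 3.5e-08). Zfp939 had 1.92, 2.28 and 2.22 CPM, against 0.29 to 0.508 CPM in ko (2.37 ± 0.29, adjusted p = 2.8e-06), and so passed 1 CPM again. Zfp936 had 56.2, 60.8 and 59.9 CPM, against 7.54 to 17.7 CPM in ko (2.15 ± 0.25, adjusted p = 2.3e-06). In each of these 4 genes every add-back library lay above every ko library. The ko libraries enter both this comparison and that of ko against wild type.

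The 9 members of chromosome 4 all rose in wild-type add-back against ko, with a median of 1.31. Zfp992 had 116, 127 and 116 CPM in wild-type add-back, against 27.1 to 37.1 CPM in ko (1.86 ± 0.13, SE; adjusted p = 3.6e-09), and Zfp981 had 119.7, 124 and 127 CPM, against 27.9 to 45.1 CPM in ko (1.73 ± 0.14, adjusted p = 1.9e-08). The run summed to 1248 to 1277 CPM in wild-type add-back, against 388 to 598 CPM in ko. On chromosome 2, 5 of 6 members rose (median 1.06), and on chromosome 17, 5 of 10 rose (median 0.39). Zfp930 (0.47), Zfp932 (0.67), Zfp943 (0.40) and Zfp953 (0.38) rose here although their change in ko against wild type had not passed the test. Zfp949 (0.40) and Zfp963 (0.30) had fallen in ko against wild type and did not pass here. Zfp961 fell, with 73.5, 76.4 and 73.1 CPM in wild-type add-back, against 94.8 to 114 CPM in ko (-0.50 ± 0.12, adjusted p = 0.0019).

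Adding the mutant Snf2h back moved few members past the threshold. In mutant add-back against ko, Zfp951 and Zfp981 rose, none fell and 50 did not pass, where 0.114% of all genes rose and 0.208% fell (0.322% in either direction). An unadjusted p under 0.05 was found in 11 members and in 15.3% of all genes. Zfp951 had 7.52 and 7.57 CPM in mutant add-back, against 1.81 to 4.18 CPM in ko, a change of 1.34 ± 0.25 (SE; adjusted p = 0.022). Zfp981 had 61.3 and 68.9 CPM, against 27.9 to 45.1 CPM in ko, a change of 0.81 ± 0.16 (adjusted p = 0.026). Both calls are lost when either mutant add-back library is left out (log2 fold changes of 0.72 to 1.34), and that of Zfp981 also without ko replicate 1 (0.74). The DESeq2 Wald test called 6 members (2.23% of all genes), a fit with depth tier as a covariate 7 (3.22%), and a fit on the low-tier libraries alone 14 (12 higher and 2 lower, with 25.4% of all genes called). The median over the 52 members was 0.15, against -0.01 over all genes. Both mutant add-back libraries lay above all ko libraries in 18 members (13.6% of all genes) and below them in 3, namely Zfp937, Zfp941 and Zfp963 (14.3% of all genes). On chromosome 4, 8 of the 9 members were among those 18. The values there ranged from 0.00 for Zfp933 to 0.81 for Zfp981.

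**Figure D3:**
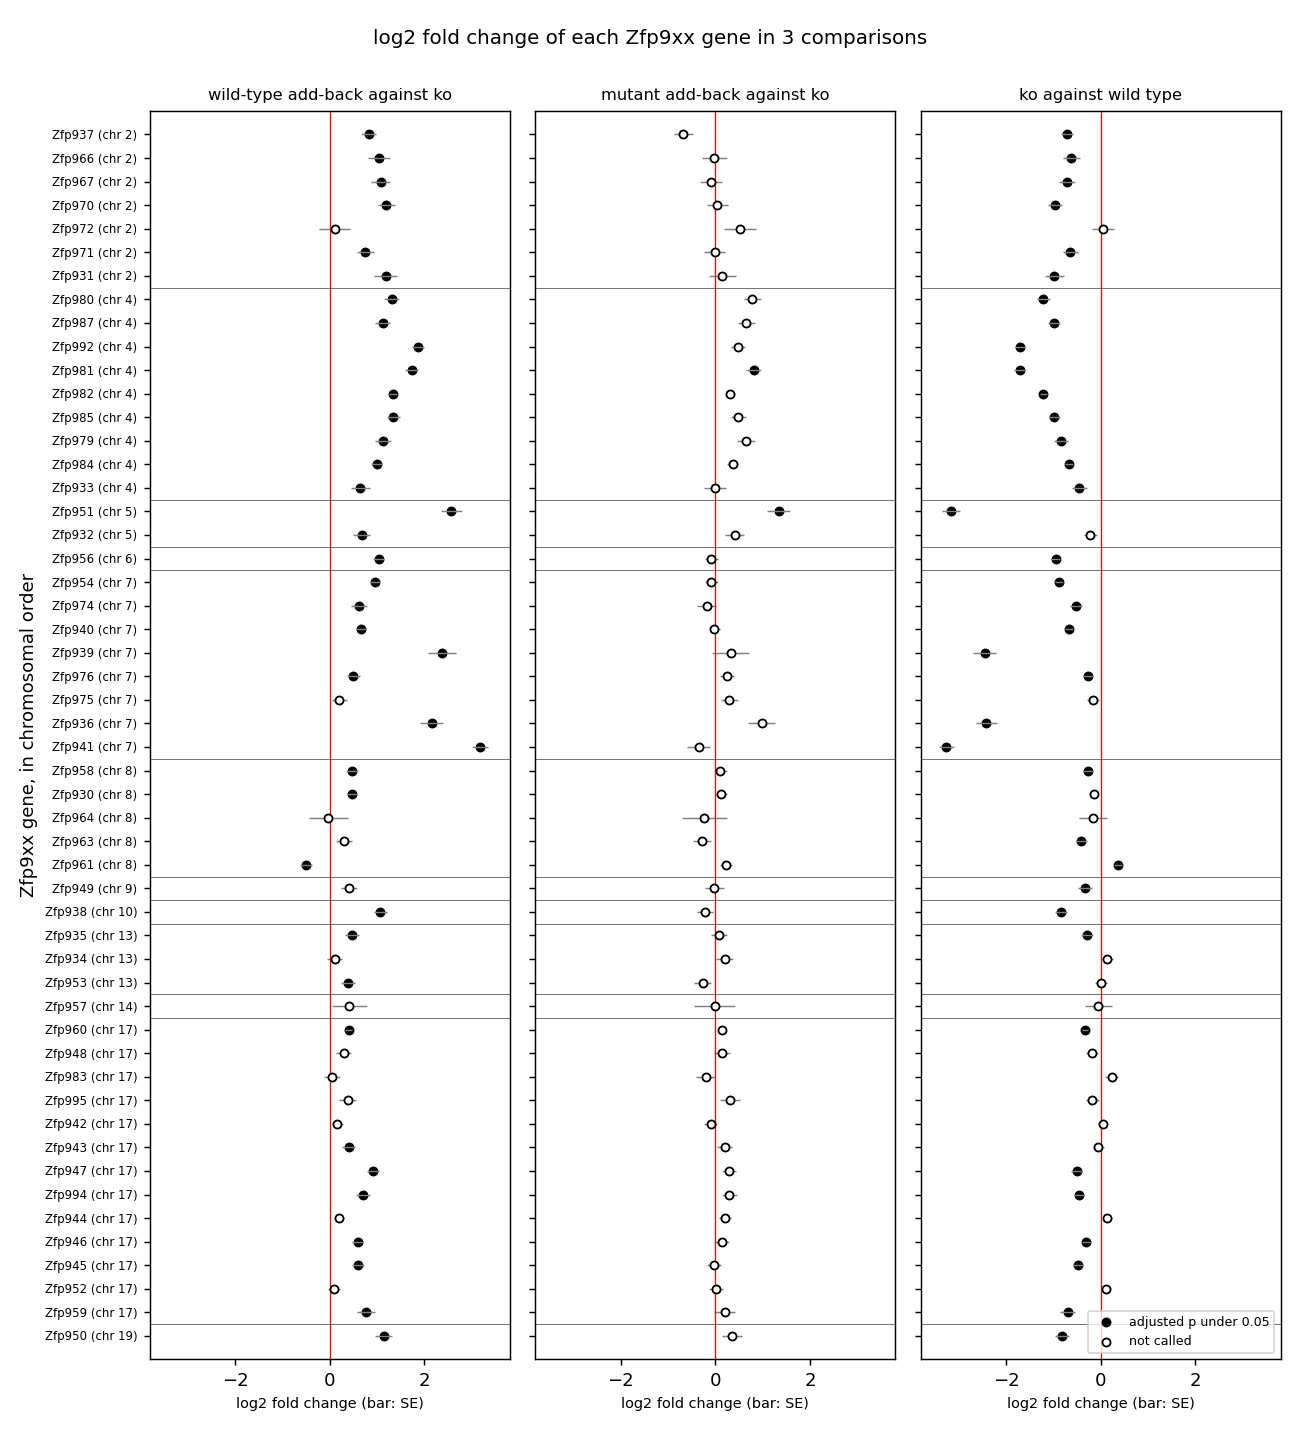
log2 fold change with its SE (horizontal axis, same scale in each panel) of each of the 52 members (vertical axis, in chromosomal order) for wild-type add-back against ko, mutant add-back against ko and ko against wild type, with filled points for an adjusted p under 0.05. The filled points are 39 in the panel of wild-type add-back, 2 in that of mutant add-back and 37 in that of ko against wild type, and the ko libraries enter all 3 panels.

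The add-backs were also set against each other. They differed in more than the protein added: Smarca5 was higher in wild-type add-back (0.56 ± 0.17, SE; adjusted p = 0.018), and 11 of the 12 tested feeder markers were lower. The part of either in the differences below was not tested. Wild-type add-back cells also grew on gelatin, while mutant add-back cells had spent passages on feeder layers, which cannot be told apart from the protein added. In wild-type add-back 28 members were higher than in mutant add-back, 1 was lower and 23 did not pass, where 18.6% of all genes were higher and 18.4% lower (37.0% in either direction). The median was 0.57 over the members and 0.31 over the other Zfp genes. Without mutant add-back replicate 1 the number called was 16 (19.8% of all genes), where the remaining mutant add-back library is assumed to vary like those of the other groups. In 41 members both groups were separate with wild-type add-back higher (36.1% of all genes). Zfp941 had 19.5, 18.3 and 20.1 CPM in wild-type add-back, against 1.67 and 1.65 CPM in mutant add-back, a change of 3.54 ± 0.25 (SE; adjusted p = 1.5e-08). Both mutant add-back libraries lay below every ko library. Zfp939 had 1.92 to 2.28 CPM in wild-type add-back, against 0.345 and 0.683 CPM in mutant add-back (2.04 ± 0.38, adjusted p = 0.00045). Zfp937 had 10.4, 10.9 and 12.6 CPM, against 3.45 and 4.55 CPM in mutant add-back (1.5 ± 0.21, adjusted p = 3e-05), and Zfp938 had 10.7, 10.4 and 11.1 CPM, against 4.31 and 4.44 CPM (1.29 ± 0.19, adjusted p = 4.3e-05). Zfp992 differed by 1.38 ± 0.17 (adjusted p = 8.7e-06) and Zfp951 by 1.23 ± 0.28 (adjusted p = 0.002). On chromosome 4, 6 of 9 members were higher in wild-type add-back, and Zfp979 (0.47), Zfp987 (0.47) and Zfp933 (0.64) did not pass. Zfp961 had 73.5, 76.4 and 73.1 CPM in wild-type add-back, against 117 and 131 CPM in mutant add-back (-0.74 ± 0.14, adjusted p = 0.00058).

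Against wild type, no member of wild-type add-back cells was called in either direction by edgeR or by the DESeq2 Wald test, where 0.43% of all genes were called higher and 1.17% lower in edgeR (1.6% in either direction). An unadjusted p under 0.05 was found by edgeR in 10 members and in 15.2% of all genes. The log2 fold changes ran from -0.58 for Zfp951 to 0.44 for Zfp932, with a median of 0.18, and 44 of 52 were above 0. In Zfp951 the 3 wild-type add-back libraries (16.9 to 18.2 CPM) lay below all 8 wild-type libraries (20.8 to 30.2 CPM), with -0.58 ± 0.2 (SE; adjusted p = 0.15). In 10 members every wild-type add-back library lay above every wild-type library (3.54% of all genes). With depth tier as a covariate 3 members were called, all lower (10.3% of all genes), and within the low tier alone 21, of which 18 were higher and 3 lower (33.0% of all genes).

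In mutant add-back against wild type, 21 members fell and 2 rose, where 23.5% of all genes fell and 22.1% rose (45.5% in either direction). The median was -0.37 over the members and -0.26 over the other Zfp genes. Zfp941 had 1.67 and 1.65 CPM in mutant add-back, against 15.2 to 26.0 CPM in wild type (-3.61 ± 0.24, SE; adjusted p = 2.8e-09), and Zfp939 changed by -2.11 ± 0.35 (adjusted p = 9.1e-05). Zfp951 changed by -1.81 ± 0.26 (adjusted p = 1.9e-05), Zfp936 by -1.44 ± 0.3 (adjusted p = 0.00086), Zfp937 by -1.39 ± 0.19 (adjusted p = 1.5e-05) and Zfp992 by -1.24 ± 0.16 (adjusted p = 5.5e-06), each without overlap. The 2 that rose were Zfp961, with 117 and 131 CPM in mutant add-back, against 62.5 to 94.0 CPM in wild type (0.60 ± 0.12, adjusted p = 0.0005), and Zfp944, with 19.6 and 18.4 CPM, against 13.4 to 17.5 CPM (0.34 ± 0.12, adjusted p = 0.028). The call of Zfp944 is lost without either mutant add-back library (0.29 and 0.38) and with depth tier as a covariate (0.28). On chromosome 4, 5 of 9 members fell. The low tier alone gave 35 calls (3 higher and 32 lower, with 66.6% of all genes called), and without mutant add-back replicate 1 there were 13 (24.2% of all genes).

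The ko effect was recomputed within tiers because ko and wild type were each sequenced at more than 1 depth. In the middle tier (ko replicates 1 and 2 against wild type replicates 1 and 2) 41 members fell and 1 rose, with a median of -0.82, where 31.9% of all genes fell and 29.9% rose. In the low tier (ko replicates 3 to 5 against wild type replicates 6 to 8) 36 fell and 1 rose, with a median of -0.50, where 30.8% of all genes fell and 29.3% rose. The decrease was thus present in both tiers. The low-tier effect was less negative than that of the middle tier in 17 members by a test of the difference itself, and more negative in Zfp948 alone (-0.55 in low-tier and 0.14 in middle-tier libraries). Over all genes 13.6% differed upward and 13.2% downward, and the median difference was 0.31 over the members and 0.04 over all genes. Zfp949 differed by 1.00, with 0.13 in the low tier and -0.87 in the middle tier. Between low-tier and middle-tier libraries of wild type, which share their genotype, 7 members were higher and 9 lower (median -0.05), where 21.9% of all genes were higher and 21.6% lower. Libraries of ko or of wild type differed within the low or the middle tier by a chi-square of 1.48 to 2.55 per gene, where counting noise alone gives about 1, and across tiers by 31.0 to 69.2. Wild-type libraries of the high tier differed by 15.9 to 40.8, wild-type add-back libraries by 2.09 to 6.72 and the mutant add-back libraries by 14. Libraries of ko or of wild type within the low or the middle tier thus differed by little more than counting noise, which may be technical. The tests within and between these tiers compare such libraries, although the fit estimated its spread over all 18 libraries. The main comparisons also count them as separate replicates, so their p-values may overstate the evidence. The endoderm markers summed to 1656 to 1729 CPM in ko and 2570.2 to 2620.4 in wild type in the low tier, and to 6483 to 6973 CPM in ko and 1213 to 1277 in wild type in the middle tier. What else sets the tiers apart is not given in the sources used here, and the part of these markers in the tier differences was not tested.

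**Figure D4:**
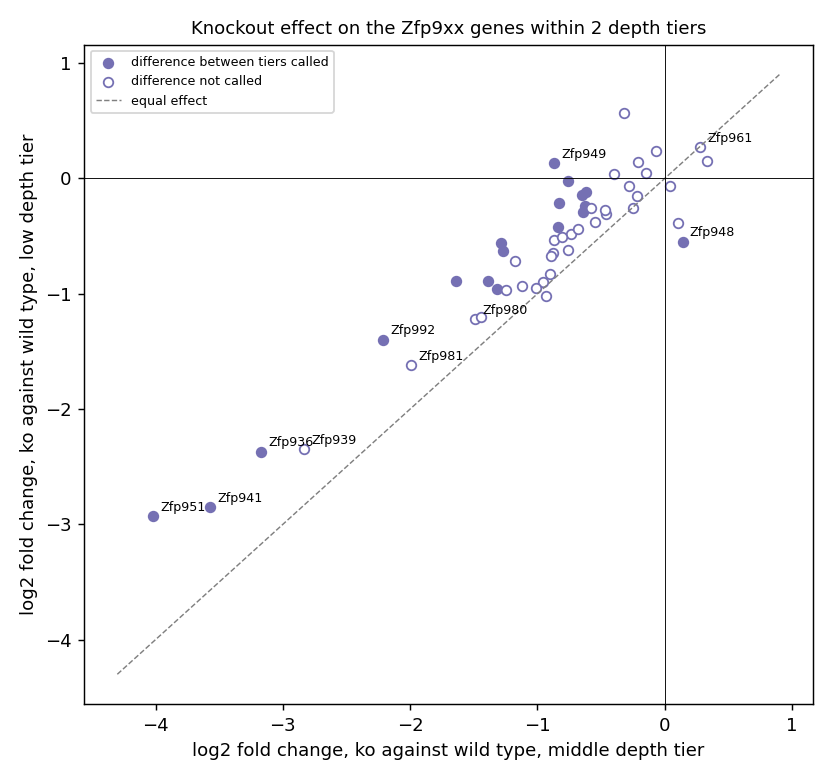
log2 fold change of ko against wild type for each of the 52 members in the middle depth tier (horizontal axis) and in the low depth tier (vertical axis), with filled points where the difference between tiers had an adjusted p under 0.05 and a dashed line where both effects are equal. Most points lie above the line, such as Zfp951, with -2.93 for the low and -4.02 for the middle tier, while Zfp961 lies on it, with 0.27 for the low and 0.28 for the middle tier.

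The partners of KRAB zinc finger proteins were read from a list of 20 corepressor genes, 19 of which were tested. In ko against wild type 12 of these fell and 1 rose, with a median of -0.29 (28.2% of all genes fell and 26.8% rose). Chd3, a NuRD subunit, fell by 1.10 ± 0.09 (SE; adjusted p = 2e-08) and Cbx1, an HP1 protein, by 0.69 ± 0.06 (adjusted p = 4.6e-08). Setdb1 fell by 0.43 and its partner Atf7ip by 0.60, while Trim28, named here as the factor that KRAB domains bind and chosen after its value was seen, had a change of -0.27 ± 0.16 that did not pass (adjusted p = 0.15). It stood at 2325 to 2415 CPM in ko and 2822 to 2935 in wild type in the low tier, and at 1337 to 1401 CPM in ko and 1964 to 2000.1 in wild type in the middle tier. In wild-type add-back against ko 10 of the 19 rose and none fell (median 0.35, with 22.5% of all genes higher). In mutant add-back against ko none was called (median 0.02), where 0.322% of all genes were called in either direction. At that share, a list this short would often hold no call. Of 12 tested KRAB zinc finger genes with a described role outside the Zfp900 to Zfp999 range, 7 fell in ko against wild type and none rose (median -0.39). These included Zfp445, which protects genomic imprints (-1.25 ± 0.11, adjusted p = 2.8e-08), and Zfp568, a repressor of a placental Igf2 transcript (-0.54 ± 0.1, adjusted p = 0.00014). These shares stand against the same 28.2% and 26.8% of all genes. In wild-type add-back against ko 7 of the 12 rose, and in mutant add-back against ko none was called (0.322% of all genes).

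Because some members share long stretches of sequence with other genes, the share of their 50-base words found in transcripts of other GENCODE genes was counted. In 22 members under 10% of the words were shared, and 12 of these fell and 1 rose in ko against wild type (median -0.29). This set included Zfp941 (5.09%), Zfp951 (1.63%), Zfp933 (1.83%) and Zfp961 (2.83%). Of 21 members with 10 to 50% shared, 16 fell (median -0.70), and of 9 members with 50% or more, 8 fell (median -0.64). Over all genes tested in that comparison, 28.2% fell and 26.8% rose. Words shared with a gene whose exons overlap were counted too, as for Zfp935, which shared most words with Gm49359 on the same strand. Reads of the members with the most shared words could have been split or lost between copies or between overlapping genes. That holds for Zfp967 and Zfp935 (100% shared), Zfp966 (90.0%), Zfp987 (89.0%), Zfp960 (82.7%), Zfp980 (71.3%), Zfp972 (56.5%), Zfp984 (54.5%) and Zfp971 (51.1%), whose values are uncertain in this respect. Exons of 11 members overlapped those of another gene, on the same strand for Zfp941, Zfp984, Zfp956, Zfp963, Zfp934, Zfp935, Zfp953 and Zfp983 and on the opposite strand for Zfp961, Zfp974 and Zfp943.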

How the data were processed

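Polyadenylated RNA of 18 libraries was purified on RNeasy columns and sequenced from stranded TruSeq libraries, per the labels' protocols. The authors deposited 1 table of raw read counts per gene, with the exonic length of each gene in bases beside them. Per the submitters' processing notes, bcl2fastq 2.17 and STAR were used with mm10 (GRCm38). Which tool, annotation and strand setting gave the counts, and which STAR version was run, is not given in the sources used here.

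Library totals were 15.3 to 37 M counts. Counts were tested with edgeR 4.0.16 (limma 3.58.1, R 4.3.3): filterByExpr with a minimum count of 10, TMM, 1 mean per group over all 18 libraries, a two-sided quasi-likelihood test with robust dispersions and p adjusted by Benjamini-Hochberg over 14901 genes, with a call at an adjusted p under 0.05. A second fit used 1 mean per group and depth tier (limits at 20 and 30 M counts). DESeq2 1.42.0 served as an alternative, beside other scalings, filters, depth tiers, a replicate block and leaving out each library. The edgeR step was tested on simulated data.

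Values of single libraries were given for called members of at least 1 CPM whose groups did not overlap: up to 10 in each direction for ko against wild type and up to 6 for each other comparison. The members and gene lists were chosen with earlier results of these data known. Positions and start regions came from RefSeq GRCm38.p6, in which all 52 members matched by Entrez gene number and 48 had a start region, and 50-base words from GENCODE transcripts.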

Additional observations from a re-analysis of the deposited data

Results flagged for a closer look

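The effect of ko against wild type differed between the low and the middle depth tier for 6 of the 14 members whose libraries were given singly. This was a test of the difference itself (edgeR quasi-likelihood test, adjusted over all 14901 genes), by which 13.6% of all genes differed upward and 13.2% downward. The 14 were picked by their fold changes in the main comparisons. The low-tier effect minus the middle-tier effect was 1.09 for Zfp951 (adjusted p = 1.9e-05), 0.82 for Zfp992 (adjusted p = 3.6e-05), 0.80 for Zfp936 (adjusted p = 0.0021), 0.75 for Zfp931 (adjusted p = 0.01), 0.72 for Zfp941 (adjusted p = 0.0045) and 0.36 for Zfp987 (adjusted p = 0.029) on the log2 scale. All 6 fell in both tiers, and the decrease was larger in the middle tier. Zfp941 and Zfp992 were also lower in wild-type libraries of the low tier than in those of the middle tier, with log2 differences of -0.66 and -0.45. Zfp987 was higher there (0.30), and Zfp936 (0.26), Zfp931 (0.25) and Zfp951 (-0.03) did not pass the test. The tiers were drawn from library totals, and what else separates them was not tested.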

How the results depend on the processing

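Numbers of members called moved most in the comparisons with small effects or with 2 mutant add-back libraries. For mutant add-back against ko the count was 2, and it was 6 with the DESeq2 Wald test, 7 with depth tier as a covariate, 14 in the low tier alone and 0 with the replicate block, and 0 to 3 when each library was left out. For wild-type add-back against wild type the count was 0, and it was 3 (all lower) with depth tier as a covariate, 21 in the low tier alone and 4 (all higher) with the replicate block, and stayed at 0 without each library in turn. For mutant add-back against wild type the count was 23, and it was 35 in the low tier alone and 13 to 27 without each library. For wild-type add-back against mutant add-back it was 29, and 16 to 26 without each library. The counts for ko against wild type (37) and wild-type add-back against ko (39) were 32 to 37 and 36 to 39 without each library. Same-numbered libraries had deviations correlated at -0.25 to 0.17. Differences between depth tiers enter these deviations too, so the values show no clear pairing but cannot exclude one. With the replicate block the counts for ko against wild type and wild-type add-back against ko were 32 and 36. Over all genes, mutant add-back against ko gave 48 calls, and 332 with the DESeq2 Wald test, 480 with tier as a covariate and 3683 in the low tier. Wild-type add-back against wild type gave 238, and 478, 1532, 4786 and, with the block, 1002. Among 35 pairs of a named member and a comparison, 608 of 619 alternative values kept direction and side of the threshold, 11 lost the call and 0 reversed. The 11 were Zfp951 and Zfp981 in mutant add-back against ko and Zfp944 in mutant add-back against wild type. The cause was not tested. The numbers of members reaching 1 CPM did not change with library size alone as the scale. With 2 mutant add-back libraries, small effects in that group may be missed.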
